A study of Mus musculus with 6 samples.

Results

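The genes described here encode the subunits of the mitochondrial respiratory chain and ATP synthase, with some of the factors that assemble them. They were chosen by symbol from the deposited array values. A gene was taken when at least 1 probe set named it alone and its symbol began with Nduf, Sdha to Sdhd, Uqcr, Cox4 to Cox8 or Atp5. Each gene was read from the probe set whose mean level over the 6 arrays was highest. The rule found 94 of the 18193 genes that the arrays name singly. They comprise 34 subunits of complex I, 4 of complex II, 8 of complex III, 18 of complex IV and 17 of complex V. The other 13 members are 8 assembly factors of complex I, 4 of complex II and Cox7a2l, which helps to join complexes III and IV. The rule used no measured difference between genotypes. Cox7b was not analysed here, and Ndufa11 and Ndufs6 were read by probe sets that also name a related gene and were left out of the counts.

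The samples were fibroblasts grown from mouse embryos (MEFs), the cells that make connective tissue, of the genotypes Atxn3-WT and Atxn3-KO. Atxn3 encodes a deubiquitinating enzyme, and the study asked how its absence alters gene expression. RNA from 3 replicates of each genotype was hybridized to 6 Affymetrix mouse arrays, on which a set of short oligonucleotides reads each transcript. The methods describe littermate mice, the same serum-containing medium for both genotypes and biological replicates. They also speak of MEF cell lines, and no source used here says how many lines there were or if each replicate came from its own embryo or culture. The p-values therefore measure the spread between these samples alone, and that spread may be technical. Values are log2 levels normalized by robust multi-array average (RMA). A log2 fold change is the mean level in Atxn3-KO MEFs minus the mean level in Atxn3-WT MEFs. A gene is said to have risen or fallen where its adjusted p was under 0.05 in limma, a linear model with a variance shared across probe sets, adjusted by Benjamini-Hochberg over 45037 probe sets. Since the samples are bulk RNA, fewer cells of a type and less RNA per cell cannot be told apart.

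In respiration, complexes I and II pass electrons from NADH and succinate to ubiquinone, complex III passes them on to cytochrome c, and complex IV passes them to oxygen. Complexes I, III and IV pump protons across the inner mitochondrial membrane, and complex V, the ATP synthase, uses their return to make ATP. All complexes except complex II contain subunits encoded by mitochondrial DNA beside those encoded in the nucleus, and many assembly factors act on them without staying in the finished complex. Some subunits of complex IV have isoforms that are made mainly in muscle, testis or cells short of oxygen.

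The targeted gene was measured first. The brighter Atxn3 probe set read 6.53, 6.81 and 6.66 in Atxn3-WT MEFs and 3.60, 3.43 and 3.73 in Atxn3-KO MEFs, with a log2 fold change of -3.08 (SE 0.096, adjusted p = 2.09e-06, limma). The groups lay far apart. The Atxn3-KO levels lay below the 25th percentile of their arrays, which leaves the size of this fold uncertain. A dimmer Atxn3 probe set had -0.35 (adjusted p = 0.117, limma), and the sources used here do not place either of them relative to the deletion. Of 14 fibroblast markers measured, 1, Lum, was low in both genotypes, meaning below the 25th percentile of each array. Vim had log2 levels of 13.81 and 13.78 and Col1a1 of 13.28 and 13.19 in Atxn3-WT and Atxn3-KO MEFs. Of the 14 markers 6 rose and 4 fell, among those that fell Thy1 with -4.21. That is 71.4% of the fibroblast markers called, against 31.8% of all genes. The linear levels of the fibroblast markers summed to 81965 to 83082 over the Atxn3-WT arrays and 78383 to 81711 over the Atxn3-KO arrays. Of 10 macrophage markers none changed at this threshold (2 higher and 0 lower at an unadjusted p under 0.05, limma). Their summed levels were 581 to 624 and 614 to 630. Of 8 epithelial markers 1 rose (12.5%), with sums of 1117 to 1288 and 1360 to 1472. Of 8 endothelial markers 1 rose (12.5%), with sums of 796 to 866 and 906 to 945. Of 8 neural markers 2 rose and 1 fell (37.5% called), with sums of 919 to 951 and 937 to 963. Neither of 2 erythroid markers passed the test (40.4 to 52.7 and 40.0 to 44.8). Germ cell, muscle and adipocyte markers are given beside the isoforms they bear on.

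Most respiratory chain genes differed little between genotypes. Of the 94 members, 20 rose and 12 fell in Atxn3-KO MEFs, and 62 did not pass the test. These 32 genes are 34.0% of the members, against 31.8% of all 18193 genes called. By direction, 21.3% rose and 12.8% fell, against 17.1% and 14.7% of all genes. The median log2 fold change was 6.3e-04 over the members and 0.0021 over all genes, and the median size was 0.094 and 0.11. Of the members, 82 differed by less than 0.25 on the log2 scale. With the stricter thresholds of 0.001 for the adjusted p and 2-fold for the change, only Cox6b2 and Ndufaf3 among the members passed, and 351 genes in all passed (1.93%). The 3 arrays of one genotype lay entirely above those of the other for 62 members (66.0%), against 49.2% of all genes. Among the 81 subunits alone, 14 rose and 9 fell (28.4%).

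The brightest subunits were also counted apart. Of 51 subunits with a mean level of at least 12, 9 were called (17.6%), against 281 of 895 genes at such levels (31.4%). The median size of the log2 fold change was 0.058 for these subunits and 0.087 for the 895 genes. The arrays of the 2 genotypes did not overlap for 33 of the 51 subunits (64.7%), against 619 of the 895 genes (69.2%). This level was chosen after the values had been seen.

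**Figure D1:**
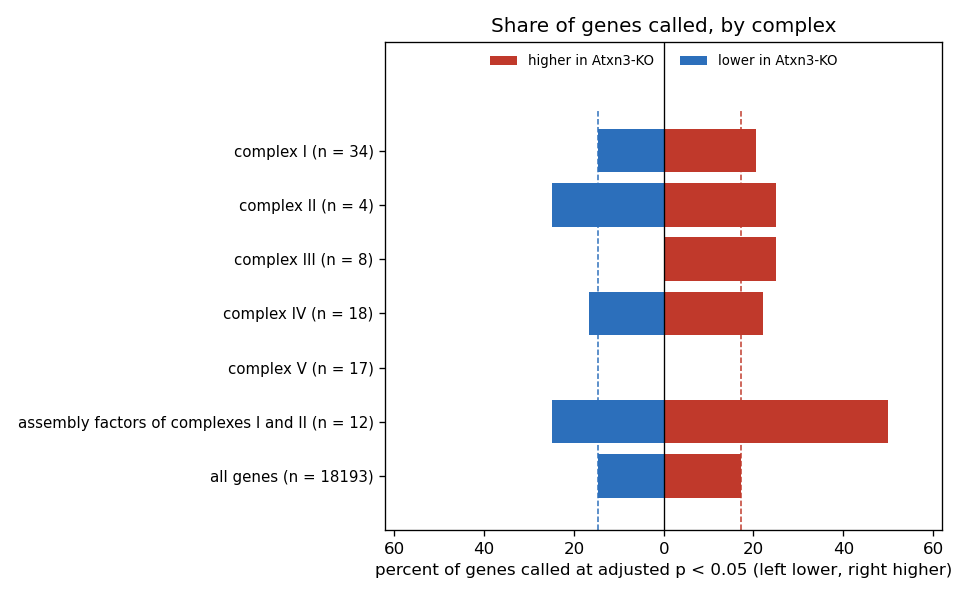
Percent of genes called at an adjusted p under 0.05 (horizontal axis) in each complex, lower in Atxn3-KO MEFs to the left and higher to the right, with the number of genes in parentheses. Dashed lines mark the shares over all 18193 genes, 14.7% and 17.1%. Complex V has no bar. The bars of the assembly factors of complexes I and II that the symbol rule took reach 25% and 50%.

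**Figure D2:**
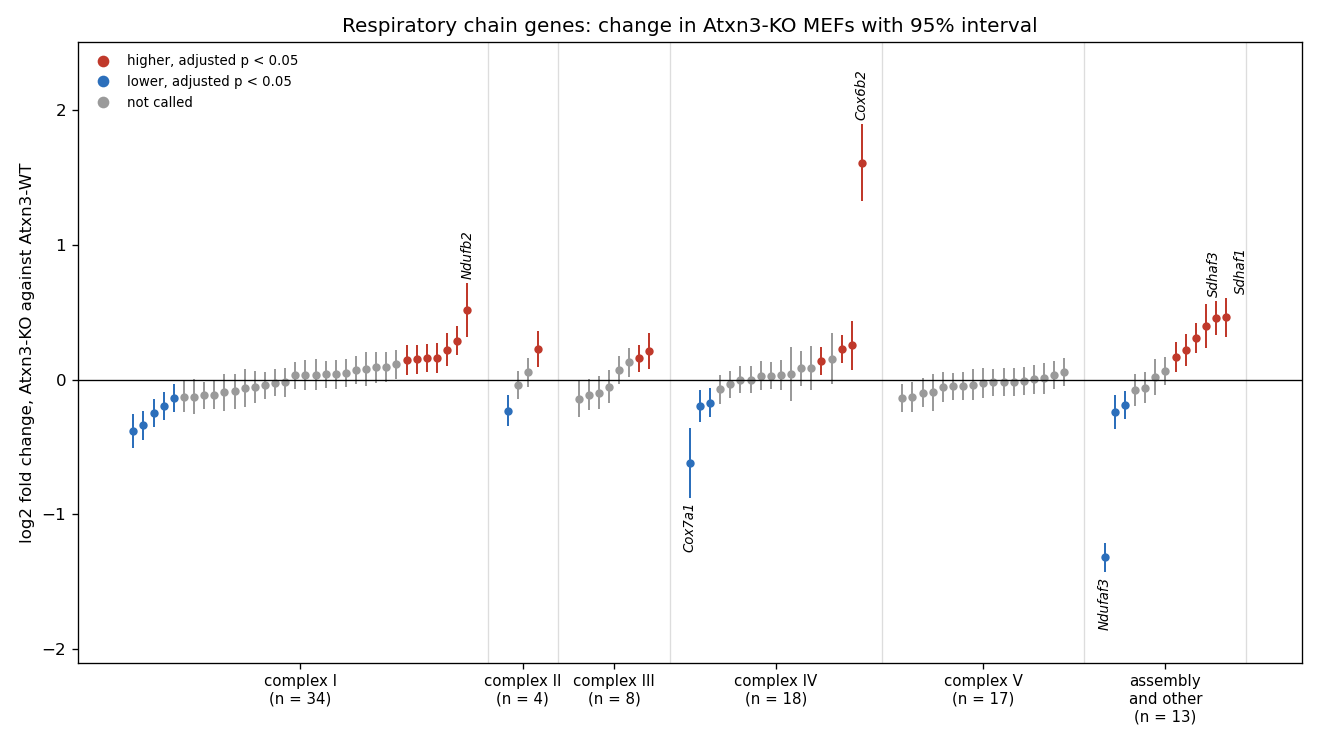
Log2 fold change of each of the 94 genes (vertical axis), ordered by value within its complex (horizontal axis), with points for the limma estimates and lines for 95% intervals. Cox6b2 at 1.61 and Ndufaf3 at -1.32 stand farthest from 0, and the 17 genes of complex V lie between -0.13 and 0.058.

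Complex I held genes that rose and genes that fell. Of its 34 subunit genes 7 rose and 5 fell (35.3% called), with a median log2 fold change of 0.033. The catalytic core, which carries flavin and iron-sulfur clusters and hands electrons to ubiquinone, was read by 6 genes. All 6 had values below 0, from -0.38 to -0.022, with a median of -0.13. Of these 6, Ndufs1 and Ndufv1 fell and none rose (4 lower and 0 higher at an unadjusted p under 0.05, limma). The 28 accessory subunits, which surround the core, had a median of 0.038, with 7 higher and 3 lower. The difference between core and accessory subunits was not tested.

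Ndufs1 encodes the largest core subunit, which holds iron-sulfur clusters of the matrix arm. Its level was 11.30, 11.26 and 11.29 in Atxn3-WT MEFs and 10.90, 10.97 and 10.82 in Atxn3-KO MEFs, with a log2 fold change of -0.38 (SE 0.051, adjusted p = 0.0016, limma). All Atxn3-KO arrays lay below all Atxn3-WT arrays. Ndufv1 encodes the subunit that binds NADH and flavin. It read 11.96, 11.96 and 11.97 in Atxn3-WT MEFs and 11.73, 11.78 and 11.77 in Atxn3-KO MEFs, with a log2 fold change of -0.20 (SE 0.041, adjusted p = 0.011, limma). These groups were separate as well, another Ndufv1 probe set fell by 0.22, and the remaining one had -0.15 (adjusted p = 0.056, limma). The other core subunits had log2 fold changes of -0.13 (Ndufs3, adjusted p = 0.081, and Ndufs8, adjusted p = 0.12, limma), -0.057 (Ndufs7) and -0.022 (Ndufv2).

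Among accessory subunits, Ndufb2, part of the membrane arm, had the highest value. It read 11.33, 11.54 and 11.63 in Atxn3-WT MEFs and 11.96, 11.98 and 12.09 in Atxn3-KO MEFs, with a log2 fold change of 0.51 (SE 0.083, adjusted p = 0.0036, limma), or 42.8% more signal. The Atxn3-KO arrays lay close together, and the Atxn3-WT arrays spread over 0.31 without reaching them. A second Ndufb2 probe set rose by 0.43, and a dim one had -0.026. Ndufa6, a subunit of the LYR motif family in the matrix arm, read 11.86, 11.81 and 11.87 against 12.14, 12.15 and 12.12, a log2 fold change of 0.29 (SE 0.042, adjusted p = 0.0022, limma). Ndufa5 rose by 0.22 and Ndufs5 by 0.16, with all Atxn3-KO arrays above all Atxn3-WT arrays for both. Ndufa5 kept its call in 13 of 14 alternative fits and Ndufs5 in 7. A brighter probe set that names Ndufs5 and its pseudogene had 0.14 (SE 0.055, adjusted p = 0.105, limma).

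On the other side, Ndufa10, a membrane arm subunit, read 12.26, 12.31 and 12.34 in Atxn3-WT MEFs and 11.95, 11.97 and 11.98 in Atxn3-KO MEFs, with a log2 fold change of -0.34 (SE 0.042, adjusted p = 0.0012, limma). Its arrays split cleanly by genotype, and a dimmer probe set of the gene fell by 0.52. Ndufb3, also of the membrane arm, read 11.62, 11.59 and 11.59 against 11.33, 11.37 and 11.35, a log2 fold change of -0.25 (SE 0.041, adjusted p = 0.0040, limma). Ndufs1, Ndufv1, Ndufa10 and Ndufb3 fell, and Ndufb2 and Ndufa6 rose, in all 14 alternative fits. The remaining changes were small. Ndufb6, Ndufa9 and Ndufs4 rose by 0.16, 0.15 and 0.14, and Ndufb5 fell by 0.14. For Ndufs4, a subunit that stabilizes the NADH-binding end, the call depended on the probe set, because another one had -0.24 (adjusted p = 0.044, limma) against an adjusted p of 0.0499 for the brightest. Ndufb1 is the protein-coding gene next to Atxn3 in RefSeq. It read 7.86, 7.93 and 7.98 against 7.76, 7.88 and 7.84, groups that overlap, with a log2 fold change of -0.096 (SE 0.054, adjusted p = 0.25, limma).

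Complex II, the succinate dehydrogenase shared with the tricarboxylic acid cycle, is encoded by 4 nuclear genes, of which 1 rose and 1 fell. Sdhb, the iron-sulfur subunit, read 11.91, 12.01 and 12.07 in Atxn3-WT MEFs and 12.19, 12.22 and 12.25 in Atxn3-KO MEFs, with a log2 fold change of 0.22 (SE 0.054, adjusted p = 0.020, limma). Sdhc, a membrane anchor, read 11.59, 11.61 and 11.66 against 11.40, 11.35 and 11.42, a log2 fold change of -0.23 (SE 0.045, adjusted p = 0.0088, limma). Both genes separated the genotypes, in opposite directions. Sdha, the flavoprotein that oxidizes succinate, had -0.040 (95% interval -0.14 to 0.058). The other anchor Sdhd had 0.053 (95% interval -0.046 to 0.15), and a dimmer Sdhd probe set rose by 0.17.

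In complex III, 2 of 8 genes rose and none fell (2 were lower at an unadjusted p under 0.05, limma), with a median log2 fold change of 0.0090. Uqcrfs1 encodes the Rieske iron-sulfur protein that takes electrons from ubiquinol. It read 11.86, 11.99 and 12.03 in Atxn3-WT MEFs and 12.15, 12.18 and 12.19 in Atxn3-KO MEFs, with a log2 fold change of 0.21 (SE 0.054, adjusted p = 0.027, limma). Uqcrh, the hinge protein near cytochrome c1, read 12.63, 12.60 and 12.63 against 12.79, 12.77 and 12.76, a log2 fold change of 0.16 (SE 0.040, adjusted p = 0.026, limma). All Atxn3-KO arrays were above all Atxn3-WT arrays for both. The scaffold proteins Uqcrc1 and Uqcrc2 had -0.11 and -0.054 and did not pass the test, and the lowest value was that of Uqcr10 with -0.15 (adjusted p = 0.092, limma).

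Complex IV, cytochrome c oxidase, held the highest and the lowest log2 fold change among the 81 subunits, and both are tissue-restricted isoforms. Of its 18 genes 4 rose and 3 fell, with a median of 0.032. Among 10 ubiquitous subunits 3 rose and 1 fell, and among 8 restricted isoforms 1 rose and 2 fell. Without the restricted isoforms, 1 gene of complex IV fell instead of 3.

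Cox6b2 encodes the testis isoform of subunit VIb, which lies at the intermembrane face of the enzyme. Its level was 5.68, 5.81 and 5.85 in Atxn3-WT MEFs and 7.60, 7.45 and 7.12 in Atxn3-KO MEFs, with means of 5.78 ± 0.087 and 7.39 ± 0.25 (SD, n = 3). The lowest Atxn3-KO array lay 1.27 above the highest Atxn3-WT array. The log2 fold change was 1.61 (SE 0.12, adjusted p = 1.03e-04, limma), a 3.05-fold higher signal. Its ubiquitous counterpart Cox6b1 read 13.14, 13.15 and 13.18 against 13.18, 13.19 and 13.19, a log2 fold change of 0.028 (95% interval -0.066 to 0.12). Germ cells make Cox6b2, and of 5 germ cell markers (Ddx4, Dazl, Sycp3, Tex11 and Mael) all were low in both genotypes and none passed the test. Their linear levels summed to 53.6 to 54.2 over the Atxn3-WT arrays and 54.9 to 59.9 over the Atxn3-KO arrays. Of the genes beside Cox6b2 in RefSeq, Kmt5c had 0.0034 and Il11 -0.14, both short of the threshold, while Brsk1, the third on one side, rose by 0.16.

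Cox7a1, the heart and skeletal muscle isoform of subunit VIIa, read 5.90, 5.88 and 6.15 in Atxn3-WT MEFs and 5.50, 5.16 and 5.41 in Atxn3-KO MEFs. No Atxn3-KO array reached the Atxn3-WT arrays. The log2 fold change was -0.62 (SE 0.11, adjusted p = 0.0048, limma). Its ubiquitous counterpart Cox7a2 had -0.0024 (95% interval -0.095 to 0.091). Of 13 skeletal and cardiac muscle markers none rose and 2 fell, Tnnt2 with -1.45 and Mb with -0.26, a share of 15.4% against the 14.7% of all genes that fell. The other 11 did not pass the test, among them Actc1 with 0.28, and 3 of the 13 were low in both genotypes. Their linear levels summed to 644 to 655 over the Atxn3-WT arrays and 615 to 620 over the Atxn3-KO arrays. Among 7 adipocyte markers, brown fat included, Fabp4 rose by 0.61 and Prdm16 fell by 0.53, a share of 28.6% against 31.8% of all genes. Of these markers 4 were low in both genotypes, and the sums were 320 to 363 and 379 to 396. The part of these cell types in the Cox7a1 difference was not tested.

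Cox6a2, another heart and skeletal muscle isoform, fell by 0.19 (SE 0.047, adjusted p = 0.022, limma), with a second, dimmer probe set at -0.045. The isoforms Cox8c with 0.086, Ndufa4l2 with 0.082, Cox4i2 with 0.038 and Cox8b with 0.036 did not pass the test. Cox7b2 had 0.15 and was the only member low in both genotypes. The ubiquitous counterparts Cox4i1, Cox6a1 and Cox8a had -0.073, -0.036 and 0.028, and their 95% intervals lay between -0.18 and 0.13.

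Among ubiquitous subunits, Ndufa4 was first counted in complex I and is now placed in complex IV. It read 13.15, 13.12 and 13.15 in Atxn3-WT MEFs and 13.37, 13.38 and 13.34 in Atxn3-KO MEFs, with a log2 fold change of 0.22 (SE 0.041, adjusted p = 0.0064, limma). The arrays within each genotype lay within 0.043 of each other, and all Atxn3-KO arrays lay above all Atxn3-WT arrays. Cox6c rose by 0.14 (adjusted p = 0.0498, limma). Cox7c rose by 0.25 (adjusted p = 0.041, limma) on a probe set with a mean level of 6.46, and its other, dimmer probe set had 0.096. Cox5b, the zinc-binding subunit, read 13.50, 13.48 and 13.53 against 13.33, 13.37 and 13.30, a log2 fold change of -0.17 (SE 0.043, adjusted p = 0.024, limma), and 3 other probe sets fell by 0.21 to 0.23. A pair of dim Cox5b probe sets had -0.11 and 0.056 and did not pass the test. Cox5a had -0.0012 (95% interval -0.094 to 0.092).

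The promoters of these isoform pairs are shown because one partner of each pair changed and the other did not pass the test. Each runs from 250 bases before to 50 bases after a RefSeq transcript start in GRCm38.p6, written 5′ to 3′ along the transcript's strand, with motif matches in capitals. On both strands, the motifs searched were GCGCA and GCGC with any base between them for nuclear respiratory factor 1 (NRF1), CCGGAAG for GA-binding protein (GABP), AAGATGGC for YY1, and the CCAAT and TATAAA boxes. GABP and YY1 matches can share letters. The restricted isoforms have 10 (Cox6b2) and 7 (Cox7a1) CpG dinucleotides in these windows, and their counterparts have 17 (Cox6b1) and 20 (Cox7a2). Capitals in the first 3 mark CCAAT boxes in either orientation, with a GABP match beside them in Cox6b1, and Cox7a2 has none of the motifs.
Cox6b2, chr7:4753045-4753344, minus strand: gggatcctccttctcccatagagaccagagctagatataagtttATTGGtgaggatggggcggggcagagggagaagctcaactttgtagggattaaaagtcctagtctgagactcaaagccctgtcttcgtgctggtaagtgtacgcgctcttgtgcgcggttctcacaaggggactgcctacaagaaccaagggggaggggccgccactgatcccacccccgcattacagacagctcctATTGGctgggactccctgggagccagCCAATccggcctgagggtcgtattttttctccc
Cox6b1, chr7:30626065-30626364, minus strand: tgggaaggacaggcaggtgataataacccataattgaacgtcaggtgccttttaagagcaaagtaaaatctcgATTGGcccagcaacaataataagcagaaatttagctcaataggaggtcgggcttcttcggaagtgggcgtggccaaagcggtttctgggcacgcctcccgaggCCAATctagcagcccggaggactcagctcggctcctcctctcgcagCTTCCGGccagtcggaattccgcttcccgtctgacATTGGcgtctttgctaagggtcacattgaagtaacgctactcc
Cox7a1, chr7:30183921-30184220, plus strand: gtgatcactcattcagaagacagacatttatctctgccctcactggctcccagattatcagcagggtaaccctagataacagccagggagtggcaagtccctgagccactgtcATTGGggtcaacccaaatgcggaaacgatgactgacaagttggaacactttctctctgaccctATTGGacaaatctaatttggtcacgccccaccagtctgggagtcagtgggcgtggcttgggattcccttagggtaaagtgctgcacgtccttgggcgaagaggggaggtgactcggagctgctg
Cox7a2, chr9:79759804-79760103, minus strand: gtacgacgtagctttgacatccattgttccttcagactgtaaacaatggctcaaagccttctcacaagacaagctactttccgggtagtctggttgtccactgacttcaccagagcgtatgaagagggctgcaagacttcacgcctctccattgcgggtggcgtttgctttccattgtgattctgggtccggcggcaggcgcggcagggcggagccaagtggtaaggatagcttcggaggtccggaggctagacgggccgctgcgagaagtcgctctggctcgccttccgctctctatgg

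Over the members, 78 of 94 matched the promoter table, with 83 windows of 300 bases. The NRF1 motif occurred in 24.1% of these windows against 4.60% of all 32851 promoter windows of that length, the GABP motif in 26.5% against 8.86%, and the YY1 motif in 12.05% against 2.75%. The CCAAT box was found in 41.0% against 37.4% and TATAAA in 12.05% against 13.6%. The median number of CpG dinucleotides was 20 in member windows and 7 in all windows. Of 19 members with the NRF1 motif 6 were called, and of 59 without it 21. Of 22 with the GABP motif 7 were called, and of 56 without it 20. A match describes the letters of the window and is neither a binding site nor a cause.

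None of the 17 genes of complex V passed the test, against 31.8% of all genes called and 31.4% of the 895 genes with a mean level of at least 12. At an unadjusted p under 0.05, 2 were lower, Atp5a1 and Atp5g1, and 0 were higher (limma). Their log2 fold changes ran from -0.13 to 0.058 with a median of -0.027, and 13 of the 17 lay below 0. All their 95% intervals lay between -0.24 and 0.15. The median size of change was 0.039, against 0.11 over all genes and 0.087 over those 895 bright genes. The mean levels of the 17 genes ran from 11.70 to 13.70, so the bright genes are nearer to them in level. The mean level over the 17 genes was 12.90, 12.91 and 12.92 in Atxn3-WT MEFs, and in Atxn3-KO MEFs it was 12.86, 12.87 and 12.89. These means did not overlap and differed by less than 0.1, and 3 arrays against 3 cannot give an exact permutation p below 0.1. The call of 0 genes depended on the setting. Atp5a1, Atp5h and Atp5g1 fell when probe sets below the median level were left out, where 56.7% of genes were called, and with a variance that follows the level, where 38.8% were.

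Atp5a1, the α subunit of the catalytic head, came nearest to the threshold. It read 13.39, 13.35 and 13.37 in Atxn3-WT MEFs and 13.21, 13.26 and 13.23 in Atxn3-KO MEFs, with a log2 fold change of -0.13 (SE 0.041, adjusted p = 0.051, limma). Its groups did not overlap, and another of its probe sets fell by 0.17. The last and dimmer Atp5a1 probe set had 0.15 (adjusted p = 0.29, limma). The 5 genes of the head and central stalk had values from -0.13 to -0.017. Among them, Atp5b, the catalytic β subunit, had -0.048 (95% interval -0.14 to 0.047). Atp5g1, Atp5g2 and Atp5g3 encode the same mature c subunit of the rotating ring, with log2 fold changes of -0.13 (adjusted p = 0.068, limma), 0.0079 and -0.051. For Atp5g1 a dim probe set, whose Atxn3-WT mean was 5.90, fell by 0.53. The 4 genes of the peripheral stalk lay between -0.098 and 0.035. Atp5mpl, a small membrane subunit, had the highest value of the complex with 0.058. The promoter of Atp5c1, the γ subunit of the central stalk with -0.017 (95% interval -0.11 to 0.079), is shown as an example of the NRF1 motif in a gene that did not pass the test, with that motif and a CCAAT box in capitals.
Atp5c1, chr2:10080383-10080682, minus strand: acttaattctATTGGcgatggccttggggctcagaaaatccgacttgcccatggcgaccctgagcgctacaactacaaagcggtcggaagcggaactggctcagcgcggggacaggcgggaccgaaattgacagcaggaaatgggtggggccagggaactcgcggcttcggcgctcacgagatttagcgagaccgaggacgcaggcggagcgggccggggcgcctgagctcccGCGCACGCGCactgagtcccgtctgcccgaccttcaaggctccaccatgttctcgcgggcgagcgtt

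Of the 12 assembly factors of complexes I and II that the symbol rule took, 6 rose and 3 fell. That is 75.0% called, against 31.8% of all genes, with a median size of change of 0.23. Of 8 complex I assembly factors under other names, 1 rose and 1 fell (25%). The difference between the 12 factors and the subunits was not tested. The median level of the 12 was 9.81, lower than the 12.41 of the subunits. Ndufaf3, which with Ndufaf4 builds the ubiquinone-binding part of complex I, had the lowest value of all members. It read 9.06, 9.01 and 8.99 in Atxn3-WT MEFs and 7.69, 7.74 and 7.67 in Atxn3-KO MEFs, with means of 9.02 ± 0.035 and 7.70 ± 0.034 (SD, n = 3). The gap between the groups was 1.25, and no group spread over more than 0.067. The log2 fold change was -1.32 (SE 0.044, adjusted p = 2.90e-06, limma), so that the signal fell by 59.9%. Of the measured genes beside it in RefSeq, Dalrd3 had 0.14 (adjusted p = 0.089, limma) and Qrich1 -0.027, while Qars, the third on one side, fell by 0.18 (adjusted p = 0.019, limma). Its promoter is shown as that of the member that fell most, with a CCAAT box in capitals and 29 CpG dinucleotides.
Ndufaf3, chr9:108567387-108567686, minus strand: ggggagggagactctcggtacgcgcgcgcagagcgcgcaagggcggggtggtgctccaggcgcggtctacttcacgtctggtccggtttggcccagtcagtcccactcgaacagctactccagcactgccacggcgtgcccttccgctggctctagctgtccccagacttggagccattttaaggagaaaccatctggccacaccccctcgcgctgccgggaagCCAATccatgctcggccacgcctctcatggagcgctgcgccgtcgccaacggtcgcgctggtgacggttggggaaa

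Its partner Ndufaf4 moved the other way, with 9.92, 9.94 and 9.94 in Atxn3-WT MEFs and 10.19, 10.25 and 10.29 in Atxn3-KO MEFs, with a log2 fold change of 0.31 (SE 0.044, adjusted p = 0.0022, limma). A second Ndufaf4 probe set rose by 0.19. Sdhaf1 and Sdhaf3 help to put iron-sulfur clusters into Sdhb, which also rose. Sdhaf1 read 8.29, 8.35 and 8.42 against 8.73, 8.85 and 8.87, a log2 fold change of 0.46 (SE 0.058, adjusted p = 0.0012, limma). Sdhaf3 read 8.39, 8.39 and 8.46 against 8.82, 8.94 and 8.85, a log2 fold change of 0.46 (SE 0.051, adjusted p = 7.21e-04, limma), while a dim Sdhaf3 probe set had -0.096. The groups were separate for all of these. Ndufaf6 rose by 0.40, Ndufaf2, which attaches to late assembly intermediates, by 0.22 and Ndufaf8 by 0.17. Ndufaf1, which acts in building the membrane arm, fell by 0.24 (adjusted p = 0.011, limma), and Sdhaf4, which binds Sdha before assembly, fell by 0.19. Ndufaf5, Ndufaf7 and Sdhaf2 had -0.061, -0.078 and 0.065 and did not pass the test, and neither did Cox7a2l with 0.020.

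**Figure D3:**
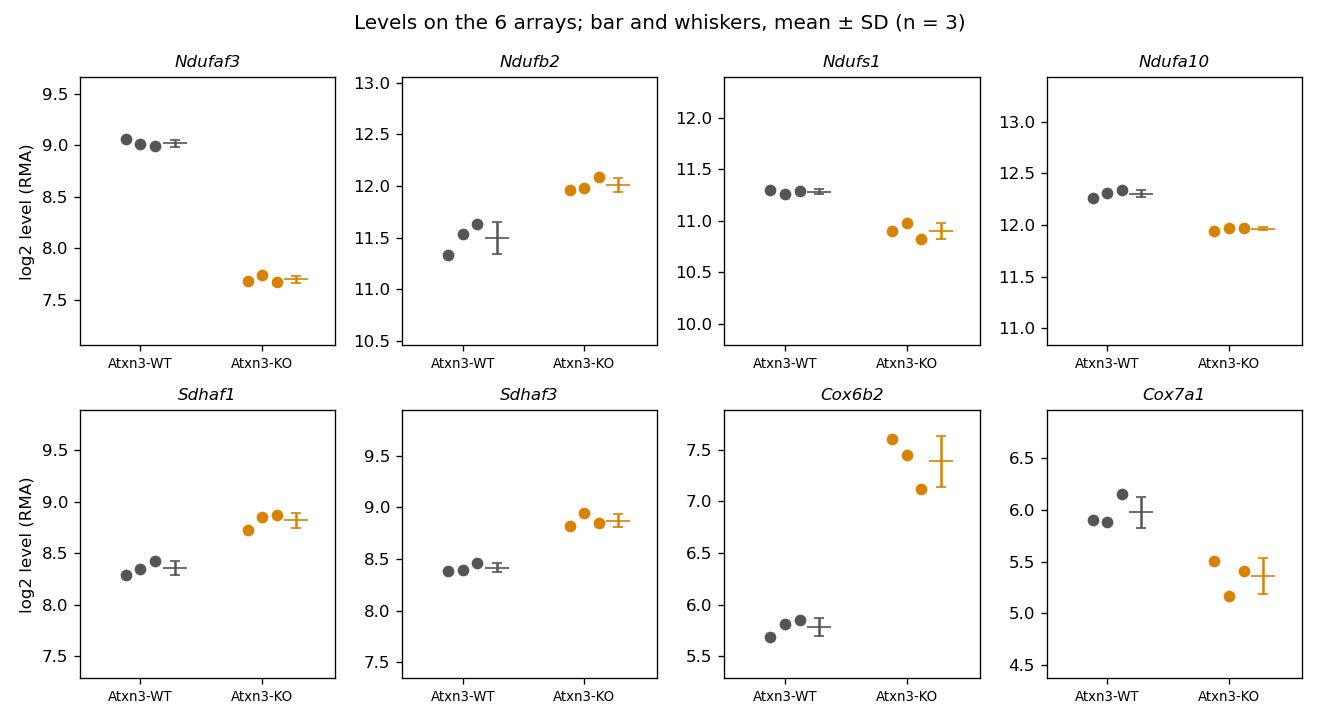
Log2 level (vertical axis, RMA) of 8 genes on the 3 Atxn3-WT and 3 Atxn3-KO arrays, with a point for each array and a bar with whiskers for the mean ± SD; each panel spans the same range of log2 units. The groups are separate in every panel, and the gap is widest for Cox6b2 and Ndufaf3.

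Of the 32 members called, 16 kept their call and direction in all of the 14 alternative fits that gave them a value. Those that rose were Cox6b2, Ndufb2, Sdhaf1, Sdhaf3, Ndufaf6, Ndufaf4, Ndufa6 and Ndufa4. Those that fell were Ndufaf3, Ndufs1, Ndufa10, Ndufb3, Ndufaf1, Sdhc, Ndufv1 and Cox7a1. Cox7a1 had no value where probe sets below the median level were left out.

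Other probe sets of the same genes gave a second reading. For 53 members the arrays hold several probe sets, 91 beside the brightest ones. Of 63 other probe sets with a mean level of at least 8, 60 had a log2 fold change within 0.25 of that of the brightest, with the largest distance at 0.39. Of 28 dimmer ones, 25 were within 0.25, with the largest distance at 0.55. Since 82 of the 94 members differed by less than 0.25, a distance under 0.25 says little about whether probe sets agree. Among 16 called members with several probe sets, 8 had another one called in the same direction and 1, Ndufs4, had one called in the opposite direction. Of 37 members not called, 8 had another probe set that was called. These were Ndufa7, Sdhd and Uqcrb with higher values and Ndufb7, Ndufs8, Atp5a1, Atp5g1 and Atp5j2 with lower ones.

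**Figure D4:**
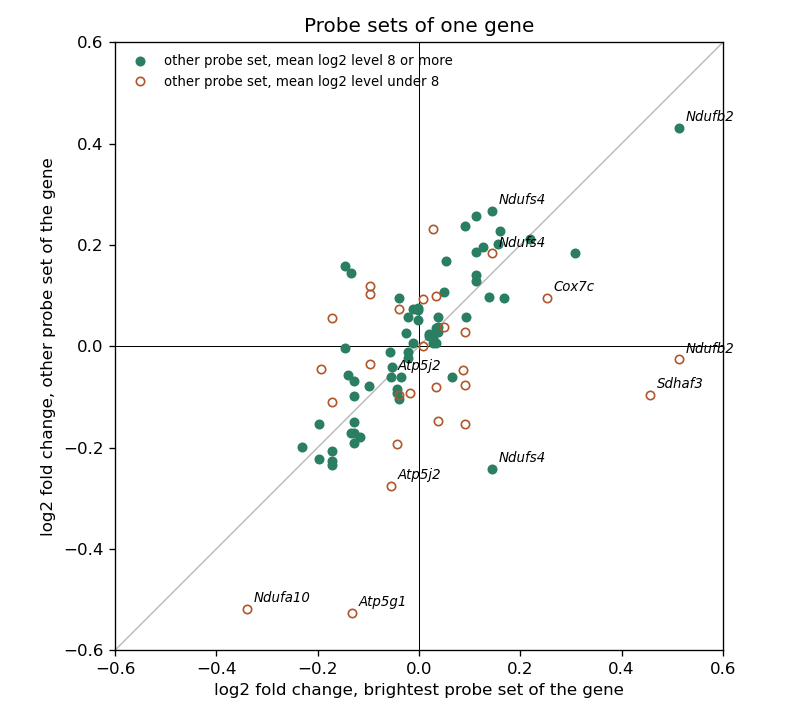
Log2 fold change of the brightest probe set of a gene (horizontal axis) against that of each of its 91 other probe sets (vertical axis), filled where the other probe set has a mean level of at least 8 and open where it is dimmer. Points near the diagonal are probe sets that agree; a filled Ndufs4 point at -0.24 and open points of Ndufb2 and Sdhaf3 lie far from it.

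Of 87 genes of the same pathway under other names 13 rose and 16 fell, a share of 33.3% against 31.8% of all genes. Of 26 listed symbols of mitochondrially encoded subunits, the arrays named only ND5, which had 0.14 (SE 0.14, adjusted p = 0.51, limma). Cycs, the somatic cytochrome c that carries electrons from complex III to complex IV, read 12.49, 12.46 and 12.49 in Atxn3-WT MEFs and 12.82, 12.82 and 12.87 in Atxn3-KO MEFs, with a log2 fold change of 0.35 (SE 0.041, adjusted p = 8.62e-04, limma). It was the 1 gene called of 3 cytochrome c and cytochrome c1 genes. Of 8 other complex I assembly factors 1 rose and 1 fell, Lyrm2 with 0.55 and Nubpl, which delivers iron-sulfur clusters, with -0.16. Of 6 complex III assembly factors, Uqcc3 rose by 0.21 and Bcs1l, which inserts the Rieske protein, fell by 0.28. Of 18 complex IV assembly factors 4 rose and 5 fell, with Coa3 at 0.36 and Coa5 at -0.35. Of 4 further ATP synthase genes, Atpif1, the inhibitor of ATP hydrolysis by the enzyme, rose by 0.36 and the assembly factor Atpaf1 by 0.22, and Tmem70 fell by 0.20. The Atpaf1 value turned to -0.19 when all its probe sets were averaged.

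Of 13 regulators of mitochondrial biogenesis 1 rose and 3 fell. Ppargc1a, a transcriptional coactivator of mitochondrial genes, read 4.29, 4.43 and 4.19 in Atxn3-WT MEFs and 5.28, 4.93 and 5.35 in Atxn3-KO MEFs, with a log2 fold change of 0.88 (SE 0.12, adjusted p = 0.0015, limma). Its mean in Atxn3-WT MEFs was low by the same measure, so the fold is not exact. Tfb2m, a transcription factor of mitochondrial DNA, fell by 0.42. Of 12 tricarboxylic acid cycle genes 1 rose and 3 fell, with Suclg2, a succinyl-CoA ligase subunit, at 0.45 and Fh1, fumarase, at -0.25. Of 6 other enzymes that feed electrons to ubiquinone, Gpd2, the mitochondrial glycerol phosphate dehydrogenase, rose by 0.18. Of 10 coenzyme Q synthesis genes, Coq2 rose by 0.22 and Pdss2 fell by 0.26. Of 6 carriers of ADP, phosphate and the outer membrane, Vdac2, a channel of the outer membrane, fell by 0.24 and none rose (limma, with 0 higher at an unadjusted p under 0.05).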

How the data were processed

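MEF transcripts were read on 6 Affymetrix arrays, of which the sample labels place 3 with Atxn3-WT and 3 with Atxn3-KO. The authors normalized the arrays by RMA, which corrects background, equalizes the distributions of the arrays and combines the probes of a set, and deposited log2 values for 45101 probe sets. This step would hide a shift that all genes share. RMA and limma are named without versions in the submitters' processing notes, and the methods name a weighted linear model without naming its weights.

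The difference between Atxn3-KO and Atxn3-WT was fitted to the deposited log2 values by lmFit and eBayes of limma 3.58.1 (R 4.3.3) with equal array weights. P-values were adjusted over 45037 probe sets, after 64 controls were left out, with no filter on low values. Symbols are those of the platform annotation. Of the probe sets tested, 34945 name 1 gene, 932 several and 9160 none. All 94 members matched a RefSeq gene of GRCm38.p6, with 0 symbol differences. Promoter windows came from the same RefSeq release. The authors' build was not given in the sources used here.

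The members, roles, pathway lists and marker lists were chosen with earlier results of these data known. Genes were named by rule: Atxn3, all complex II subunits, up to 4 called subunits with the highest and 4 with the lowest value in each other complex, restricted isoforms of complex IV with their counterparts, the c subunits, the called assembly factors with the 2 highest and 2 lowest values, and up to 2 called genes for each pathway list. Every other gene was named after its values were seen. The fit was tested on simulated data. Alternatives were array weights, a replicate block, another normalization, filters, another variance model, probe set rules, a stricter threshold and the omission of each array in turn. The precision is limited by the number of arrays. Pairs of arrays correlated at 0.9985 to 0.9989 within a genotype.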

Additional observations from a re-analysis of the deposited data

How the results depend on the processing

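The direction of each named gene that was called held in every alternative fit that gave it a value, except Atpaf1, whose value turned to -0.19 with the mean of all probe sets of a gene. Over 55 named genes and 14 alternative fits, 696 of 766 values kept their side of the threshold, 63 lost it, 6 gained it and 1 reversed, and values of uncalled genes changed sign 13 times. Among the genes without a value with the filter on low values were Atxn3, Cox7a1, Cox7b2 and Ppargc1a, whose probe sets it removed. Counts depended on the setting more than signs did. The share of genes called was 56.7% without probe sets below the median level and 38.8% with a variance that follows the level. It was 32.4% with quantile normalization on top of RMA and 34.5% with the mean of all probe sets of a gene. Leaving out probe sets below the median level gave 20 lower members, with 9 lower in complex I, 2 in complex III and 3 in complex V. A variance that follows the level, with robust estimation, gave 23 lower members, with 9 lower in complex I, 4 higher and 3 lower in complex III and 3 lower in complex V. Quantile normalization on top of RMA gave medians of 0.012 in complex I and -0.047 in complex V, where 1 gene was lower. Median centring gave medians of 0.044 in complex IV and -0.014 in complex V. These steps moved the median of all genes by 0.0018 and 0.013. The mean of all probe sets gave medians of 0.0033 in complex I, 0.059 in complex II, 0.047 in complex III and -0.048 in complex V, with 2 higher genes in complex II and 2 lower ones in complex V. Without probe sets marked as shared between transcripts (_x_at and _s_at) the medians were 0.074 in complex II, 0.088 in complex III and -0.048 in complex V. At an adjusted p of at most 0.01, 8 members were higher and 6 lower, with 2 and 3 in complex I. There were 0 higher in complexes II and III, 2 higher and 1 lower in complex IV, and 14 called genes over the pathway lists. The share of all genes called at 0.01 was not computed, so these counts cannot be set against a background. Without the restricted isoforms, a choice made after seeing the data, 1 gene of complex IV was lower. The cause of these shifts was not tested.

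Leaving out 1 array gave 10 to 14 higher and 8 to 10 lower members. In these fits 24.3% to 27.1% of all genes were called, against 31.8% in the main fit. Higher genes numbered 2 to 3 in complex I, 0 to 1 in complex II, 0 to 1 in complex III and 2 to 3 in complex IV, and lower genes in complex IV 1 to 3. The medians ranged from 0.015 to 0.038 in complex I, -0.0066 to 0.034 in complex III, 0.021 to 0.050 in complex IV and -0.043 to -0.021 in complex V.

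Same-numbered arrays did not deviate together, with correlations of 0.021, -0.023 and -0.036 for the pairs 1, 2 and 3, so the numbers were not taken to pair the samples. With the replicate number as a block, 22 of 94 members were called, and 26.4% of all genes. Of the members, 13 were higher and 1 passed an adjusted p of 0.001 with a 2-fold change. There were 3 higher genes in complex I, 1 higher in complex III and 1 lower in complex IV.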

Other observations

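Some probe sets name a respiratory chain gene together with another gene and were left out of the counts. The probe set of Ndufs6 and Ndufs6b, which read an accessory subunit of complex I and its close relative, had log2 levels of 11.08, 11.04 and 11.06 in Atxn3-WT MEFs and 11.28, 11.30 and 11.35 in Atxn3-KO MEFs, with a log2 fold change of 0.25 (SE 0.043, adjusted p = 0.0050, limma). The groups did not overlap. The probe set of Ndufb2 and Adck2 had 0.45 (SE 0.050, adjusted p = 6.82e-04, limma), and that of Ndufab1 and its pseudogene had 0.29 (SE 0.078, adjusted p = 0.029, limma). A dim probe set of Ndufa13 and Yjefn3 had -0.38 (SE 0.084, adjusted p = 0.014, limma). A still dimmer probe set of the same genes had 0.31 (SE 0.095, adjusted p = 0.051, limma). The bright probe set that names Ndufa13 alone had -0.11 (adjusted p = 0.105, limma). Both probe sets of the Ndufb4 family had values near 0.12 (0.12 and 0.13) and did not pass the test, while the probe set that names Ndufb4 alone had a mean level of 4.88 and -0.062. The brighter probe set of Ndufa11 and Ndufa11b had 0.013 (95% interval -0.11 to 0.14). The signals of genes that share a probe set cannot be told apart.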
